A study of Mus musculus with 8 samples.

Results

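The 32 genes described here mark the vascular endothelium, the cell layer that lines blood and lymph vessels. They were taken from a list of gene names, chosen with earlier results of these data known. Each was read from the probe set that names only that gene and was brightest on average over the 8 arrays. All 32 were measured, each by 1 probe set, among 19356 genes in all. RNA was taken from the caudal part of urogenital ridges, the embryonic tissue that gives rise to kidney and gonad, in mouse embryos at stage E10.75. Wild type embryos (4 arrays) were compared with Sox11-/- embryos that lack both copies of the transcription factor gene Sox11 (4 arrays). All mice were untreated and of mixed genetic background. The replicates are described as independent, but the sources used here do not say how the Sox11 allele was made or whether a replicate pooled embryos, so p-values measure the spread between these samples only.

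Endothelial cells form vessels under VEGF, which acts through the receptor tyrosine kinases KDR (VEGFR2), FLT1 (VEGFR1) and FLT4 (VEGFR3), while angiopoietins act through TEK (TIE2) together with TIE1 as the vessels mature. Transcription factors of the ETS family (ERG, FLI1, ETS1) and of the SOXF group (SOX7, SOX17, SOX18) hold the endothelial state, and VE-cadherin, claudin 5 and other adhesion molecules seal the contacts between the cells. SOX11 belongs to another group of the SOX family, SOXC. The ridge lies beside the dorsal aorta and the cardinal veins and is itself supplied by vessels, so that endothelial RNA is a part of what the arrays read. In such bulk RNA fewer endothelial cells and less RNA per cell cannot be told apart.

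Sox11 itself went from 11.79 ± 0.06 to 9.10 ± 0.13 (SD, n = 4 each), a log2 change of -2.69 (limma adjusted p = 6.36e-08), with every knockout array below every wild type array. The 10 genes listed for kidney primordium and nephric duct read 6.92 to 12.09. In 3 of them all knockout arrays lay above all wild type arrays, as in 4.04% of all genes, and in 2 all lay below, as in 6.47%. Ret, the GDNF receptor of the nephric duct, was higher at 0.41 (limma adjusted p = 0.022, and 0.0517 to 0.0764 without wild type replicates 2 or 3 or knockout replicates 1, 2 or 3). Six2, a factor of nephron progenitors, was lower at -0.48 (limma adjusted p = 0.0437), a call kept without wild type replicate 1 (0.0323) and lost without each other array (0.0519 to 0.122) and after median centring (0.0804) or a further quantile normalization (0.0697). Both calls were also lost without moderation, at 0.0692 for Ret and 0.134 for Six2, and that of Six2 by limma with Y-linked signal in the fit, at 0.0797. Lhx1, a factor of the nephric duct, was at 0.42 (limma adjusted p = 0.0577). Y-linked genes (mean of 3) read 9.84 to 10.06 on wild type replicate 1 and knockout replicates 3 and 4, and 5.31 to 5.58 on the other arrays, so that their signal was high on 1 wild type and 2 knockout arrays. The arrays carry log2 signals after RMA normalization, where 1 unit is a 2-fold difference, and the level of 1 gene cannot be set against that of another.

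None of the 32 endothelial genes differed between the genotypes past the threshold, a limma adjusted p under 0.05 over all 19356 genes. Among all genes 70 (0.362%) were called higher and 209 (1.08%) lower in the knockout, and 82 and 137 after median centring of the arrays. At an unadjusted p under 0.05 limma had 1 endothelial gene higher (Cd34, a sialomucin) and 1 lower (Flt4, the receptor for VEGF-C and VEGF-D), where 7.29% of all genes were higher and 9.38% lower. In 30 of the 32 genes the signals of the genotypes overlapped. Cd34 was the 1 gene with all knockout arrays above all wild type arrays, as in 4.04% of all genes, and Flt4 the 1 gene with all knockout arrays below, as in 6.47%. Changes, in log2 units and given as knockout minus wild type, ran from -0.23 (Flt4) to 0.20 (Icam2), with a median of 0.05. Over all genes the median was -0.00. Of the 32 genes 22 lay above 0, against 49.9% of all genes, and 27 did so after median centring as well as after a further quantile normalization, which moved the median of all genes by 0.032 and 0.004. Without knockout replicate 1 it was 16 of 32.

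**Figure D1:**
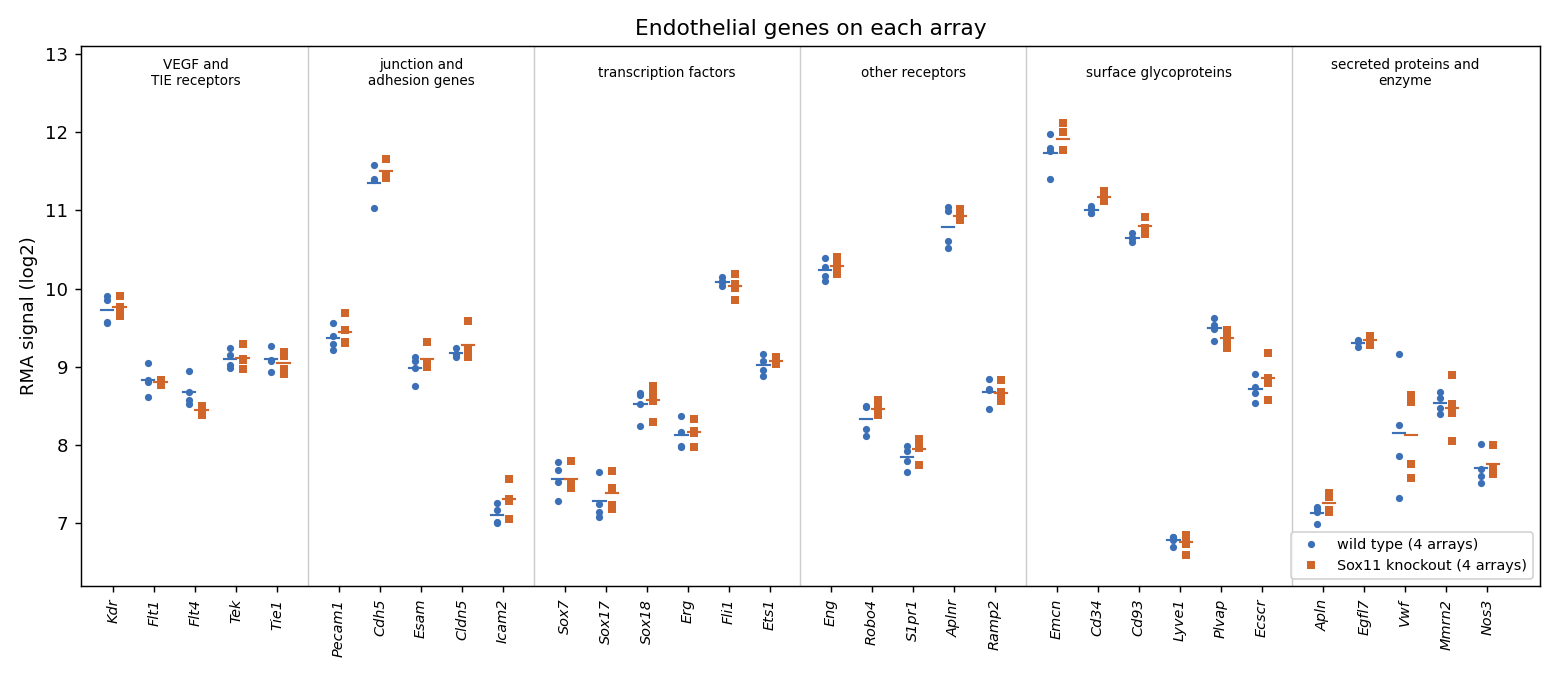
RMA signal (log2) of the 32 endothelial genes, grouped by role, with 1 point per array for 4 wild type (circles) and 4 Sox11 knockout arrays (squares) and the mean of each genotype as a short line. Signals of the genotypes overlap in 30 of the 32 genes, and those of Vwf spread most.

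The 95% interval of the change, from limma and for each gene alone, lay within 1.5-fold either way for 31 of the 32 genes (96.9%), as for 93.9% of all genes. The exception was Vwf, with an interval from -0.82 to 0.77. The SD within a genotype had a median of 0.15 over the 32 genes and 0.12 over all genes, and 23 of the 32 lay above the latter.

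**Figure D2:**
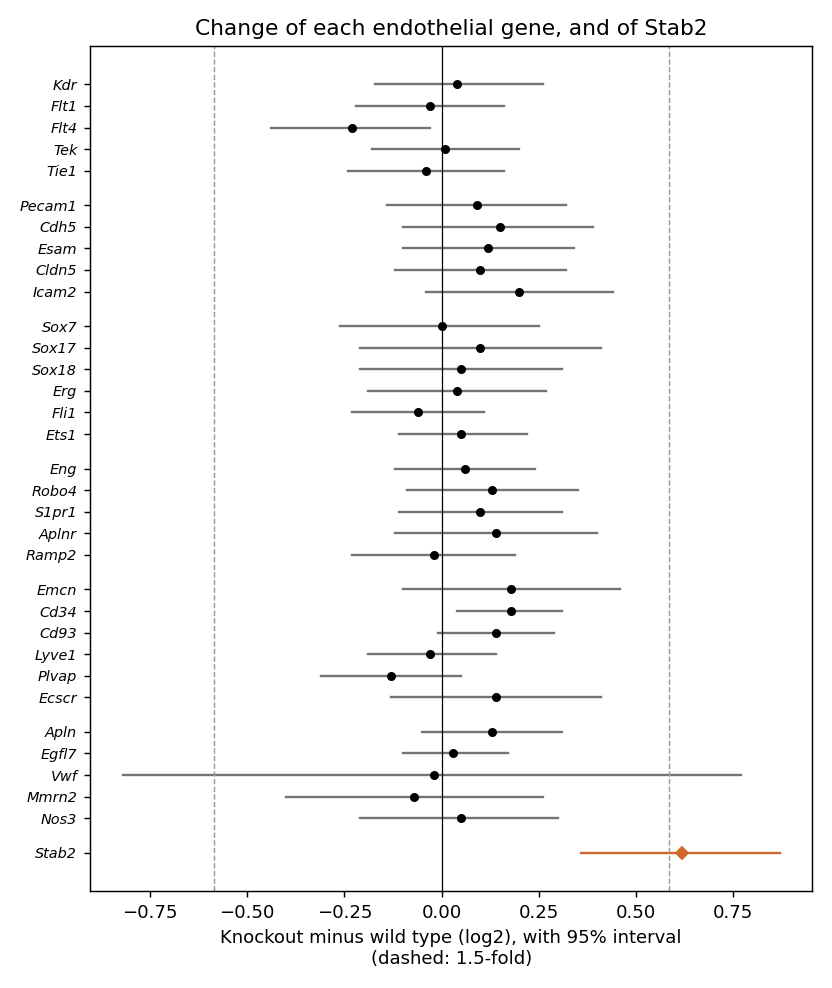
Knockout minus wild type (log2) of each endothelial gene with its 95% interval from limma, and of Stab2, a gene of endothelial cells outside the 32 (diamond), with dashed lines at 1.5-fold. All intervals but that of Vwf stay between the dashed lines among the 32 genes, and that of Stab2 runs from 0.36 to 0.87.

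Among the 5 VEGF and TIE receptors Flt4 stood lower in the knockout and the other 4 lay close to 0. Kdr, the main receptor through which VEGF drives vessel growth, read 9.56, 9.86, 9.90 and 9.57 on wild type replicates 1 to 4 and 9.90, 9.65, 9.76 and 9.75 on the knockout replicates. The ranges overlapped, with wild type replicates 1 and 4 below every knockout array, and Kdr differed by 0.04 (SE 0.10, interval -0.17 to 0.26, limma adjusted p = 0.864). Flt1, a VEGF receptor that also acts as a decoy, was at -0.03 (SE 0.09), and the angiopoietin receptor Tek and its partner Tie1 were at 0.01 and -0.04 (SE 0.09 each). These 3 genes had limma adjusted p-values from 0.853 to 0.968. The group median was -0.03, with 2 of 5 genes above 0, but 3 were above it after median centring, 4 after a further quantile normalization and 0 without knockout replicate 1.

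Flt4 marks lymphatic and angiogenic endothelium and, in the early embryo, most endothelium. Its signal (probe set 10375578) was 8.58, 8.95, 8.68 and 8.53 in wild type and 8.50, 8.44, 8.49 and 8.38 in the knockout. All 4 knockout arrays lay below all 4 wild type arrays, but the gap between the groups was 0.03, and wild type replicate 2 lay well above the other 3. Means were 8.68 ± 0.19 and 8.45 ± 0.05 (SD, n = 4 each), a change of -0.23 (SE 0.09, interval -0.44 to -0.03) that did not pass (limma adjusted p = 0.240). Without wild type replicate 2 it was -0.14 and without any 1 array the limma adjusted p ran from 0.162 to 0.451.

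The 5 junction and adhesion genes all lay above 0, from 0.09 to 0.20, and none passed. Cdh5, which encodes VE-cadherin of the adherens junction, read 11.40, 11.58, 11.39 and 11.03 in wild type and 11.66, 11.41, 11.47 and 11.46 in the knockout. Wild type replicate 2 lay within the knockout range, replicates 1 and 3 lay at its lower edge and replicate 4 well below it, and the change was 0.15 (SE 0.11, limma adjusted p = 0.524). Pecam1, an adhesion molecule of endothelial contacts and of platelets, was at 0.09 (SE 0.10). The tight junction genes Esam and Cldn5 were at 0.12 and 0.10 (SE 0.10 each), and Icam2, a ligand of leukocyte integrins, at 0.20 (SE 0.11, limma adjusted p = 0.393). Their median of 0.12 was 0.05 without knockout replicate 1, where 4 of 5 lay above 0. Without wild type replicate 4 it was 0.04, with all 5 above 0. On knockout replicate 1 Cldn5 read 9.59, against 9.13 to 9.24 on each of the other 7 arrays.

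None of the 6 transcription factors differed by more than 0.10. The SOXF genes Sox7, Sox17 and Sox18, needed for artery and lymph vessel formation, were at -0.00 (SE 0.12), 0.10 (SE 0.14) and 0.05 (SE 0.12). Sox17 read 7.15, 7.66, 7.08 and 7.25 in wild type and 7.67, 7.45, 7.23 and 7.18 in the knockout. Wild type replicate 2 and knockout replicate 1 were nearly equal and highest, and the spread within a genotype exceeded the difference between the means. The ETS factor genes Erg, Fli1 and Ets1 were at 0.04 (SE 0.11), -0.06 (SE 0.08) and 0.05 (SE 0.07). Limma adjusted p-values of these 6 genes ran from 0.725 to 0.993, and their intervals together spanned -0.26 to 0.41. Of the 6, 4 lay above 0, against 5 after each further normalization and 2 without knockout replicate 1.

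The 5 other receptors lay between -0.02 and 0.14. Eng, a co-receptor of the TGF-beta and BMP family, was at 0.06 (SE 0.08), Robo4, which keeps vessels from leaking, at 0.13 (SE 0.10), and S1pr1, the receptor for sphingosine-1-phosphate that stabilizes new vessels, at 0.10 (SE 0.09). Ramp2, the partner protein of the adrenomedullin receptor, was at -0.02 (SE 0.09). Aplnr, the apelin receptor, which marks veins in the embryo, read 10.61, 10.52, 10.99 and 11.04 in wild type and 10.88, 10.88, 10.94 and 11.02 in the knockout. The wild type arrays fell into a lower and a higher pair, and the change was 0.14 (SE 0.12, limma adjusted p = 0.577).

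Of the 6 surface glycoproteins Cd34 was separated between the genotypes. Cd34 (probe set 10352905), carried by endothelial cells and blood progenitors, read 11.05, 10.96, 11.03 and 10.96 in wild type and 11.25, 11.12, 11.18 and 11.14 in the knockout. Its spread within a genotype was small, with means of 11.00 ± 0.05 and 11.17 ± 0.06 (SD, n = 4 each), and the gap between the groups was 0.07. The change of 0.18 (SE 0.06, interval 0.04 to 0.31) is 1.13-fold and did not pass (limma adjusted p = 0.193, and 0.203 to 0.388 when 1 array was left out). Cd93, a lectin-like receptor, was at 0.14 (SE 0.07, limma adjusted p = 0.316). Its lowest knockout array, at 10.70, lay just under the highest wild type array, at 10.71, and the groups separated after both further normalizations. Emcn, the sialomucin endomucin of veins and capillaries, was at 0.18 (SE 0.13) and Ecscr, a regulator of endothelial migration, at 0.14 (SE 0.12). Plvap, the protein of the diaphragms that span endothelial pores, was at -0.13 (SE 0.08), and Lyve1, a hyaluronan receptor of lymph vessels and some macrophages, at -0.03 (SE 0.07). These 4 genes had limma adjusted p-values from 0.458 to 0.885.

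**Figure D3:**
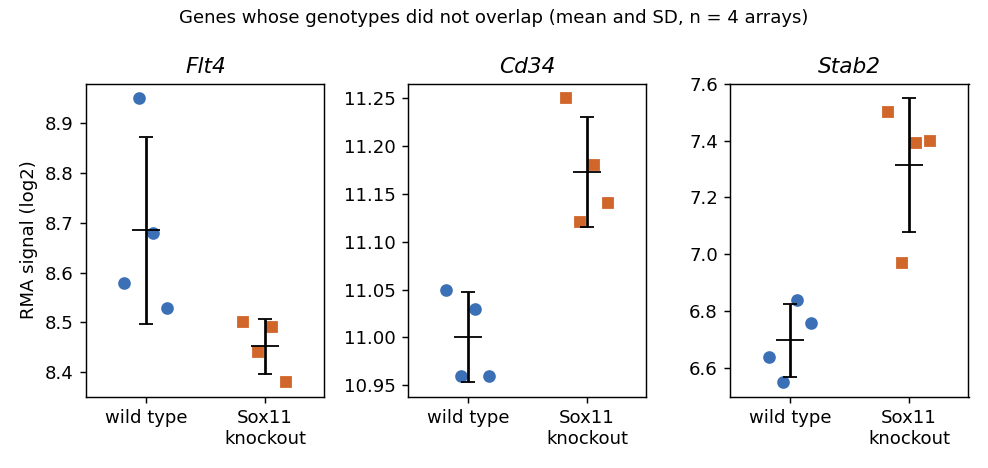
RMA signal (log2) of Flt4, Cd34 and Stab2 on 4 wild type (circles) and 4 Sox11 knockout arrays (squares), with mean and SD per genotype and a separate vertical axis for each gene. The genotypes do not overlap, with gaps of 0.03, 0.07 and 0.13 between them.

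The secreted proteins and the enzyme Nos3 did not differ past the threshold. Apln, the ligand of the apelin receptor and a gene of sprouting tip cells, was at 0.13 (SE 0.08), Egfl7, a matrix protein that guides vessel tubes, at 0.03 (SE 0.06), and Mmrn2, a matrix ligand of CD93, at -0.07 (SE 0.15). Nos3, the endothelial nitric oxide synthase, was at 0.05 (SE 0.12). Vwf, the clotting factor stored in endothelial cells and platelets, was at -0.02 (SE 0.36). Limma adjusted p-values of the 5 genes ran from 0.457 to 0.983.

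Vwf (probe set 10541910) read 8.26, 9.16, 7.33 and 7.86 in wild type and 8.64, 8.55, 7.58 and 7.76 in the knockout. Within wild type the highest and the lowest array thus differed by 1.83, and within the knockout by 1.05, while the means of 8.15 ± 0.77 and 8.13 ± 0.54 (SD, n = 4 each) were nearly equal. Its SD within a genotype, 0.67, was above that of 99.8% of all genes. Depending on which array was left out, the change of Vwf lay between -0.30 and 0.31. The other 31 genes had such SDs of 0.26 (Mmrn2) or less.

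The arrays on which Vwf was high or low were shared by some genes of arteries and smooth muscle, which were chosen here after their values were seen. Among the 137 listed genes 16 had an SD within a genotype over 0.3, as did 3.81% of all genes, and in 8 of them wild type replicate 2 was the highest wild type array and knockout replicates 1 and 2 both lay above 3 and 4. Besides Vwf these included Gja5, the connexin of arterial endothelium, Angpt2, the angiopoietin released by endothelial cells, and Cnn1, Acta2 and Tagln of the smooth muscle apparatus. Over all genes 25% were highest among wild type arrays on replicate 2, as were 21 endothelial genes. Higher on both knockout replicates 1 and 2 than on both 3 and 4 were 17.1% of all genes and 12 endothelial genes. Y-linked signal split these arrays too, at 5.34 and 5.37 on replicates 1 and 2 and 9.88 and 9.84 on 3 and 4. In wild type that signal was high on replicate 1 alone (10.06), where the 8 genes lay at -0.19 to 0.17 from their mean. The part of Y-linked signal in these values was not tested. On wild type replicate 2 the signals of the 6 genes named lay 0.62 to 1.15 above the gene's genotype mean, and on wild type replicate 3 they lay 0.18 to 0.93 below it. Hey2 and Ptprb, which complete the 8, lay 0.46 and 0.53 above it on wild type replicate 2, and at 0.05 and -0.08 from it on replicate 3. The lists that these genes came from followed this order in part. On wild type replicate 2, 11 of 13 arterial and venous genes and 9 of 10 mural cell and smooth muscle genes lay above their mean, but on wild type replicate 3, where Vwf was lowest, 8 of the 13 did (median 0.02) and 3 of the 10 (median -0.15). Kcnj8, Rgs5 and Pdgfrb of mural cells, also chosen after their values were seen, had other orders, with Kcnj8 lowest on wild type replicate 2 and Rgs5 and Pdgfrb highest on replicate 3. Of the 10 mural cell and smooth muscle genes none passed limma's test, and their part in the values of Vwf was not tested.

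**Figure D4:**
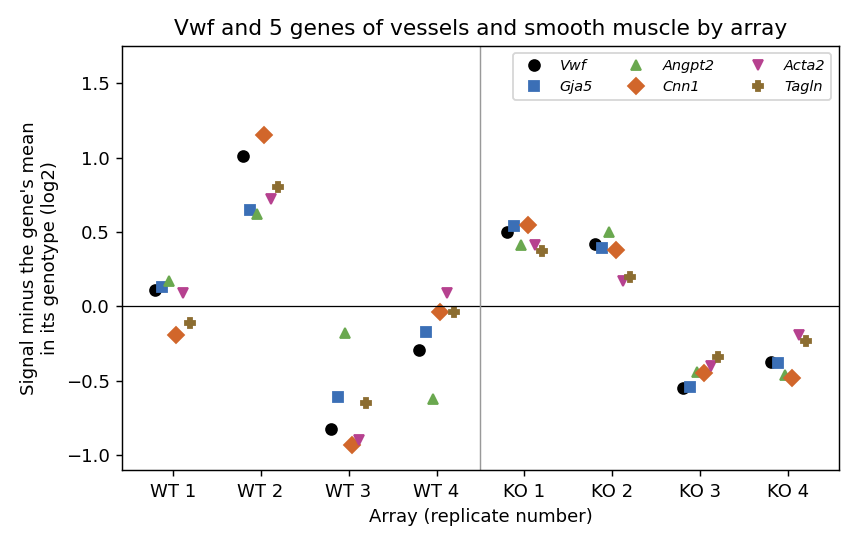
Signal of Vwf, Gja5, Angpt2, Cnn1, Acta2 and Tagln on each array, as the difference from the gene's mean in its own genotype (log2). All 6 are high on wild type replicate 2 and knockout replicates 1 and 2 and low on wild type replicate 3 and knockout replicates 3 and 4.

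The endothelial genes as a group also varied together between arrays of 1 genotype. On knockout replicate 1, 30 of the 32 lay above their knockout mean, by a median of 0.15, and 25 had their highest knockout value there, as did 26.4% of all genes. On wild type replicate 2, 28 lay above their wild type mean, by a median of 0.14, and 21 had their highest wild type value there, as did 25% of all genes. On wild type replicate 4 only 6 lay above it, the median being -0.14, and 19 had their lowest wild type value there (29.3% of all genes). After median centring only 12 had their lowest wild type value on replicate 4. Then 22 had their highest knockout value on replicate 1 and 17 their highest wild type value on replicate 2. The medians of all genes on these arrays lay at 0.00. These array medians lay farther from 0 than the median change between the genotypes, 0.05, but the latter compares means of 4 arrays and is an unlike measure. On the other arrays the medians were closer to 0, at -0.06 and 0.03 on wild type replicates 1 and 3 and -0.02, -0.05 and -0.05 on knockout replicates 2 to 4. Aplnr ran against this order in wild type, with its highest value on replicate 4 and its lowest on replicate 2.

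**Figure D5:**
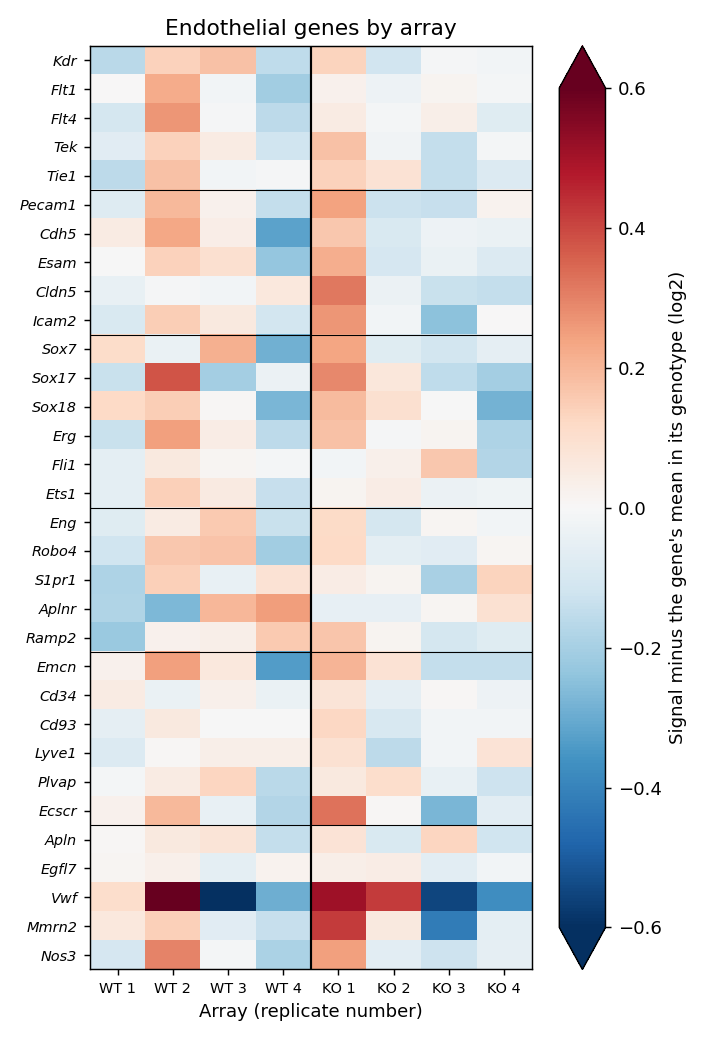
Signal of the 32 endothelial genes on each array as the difference from the gene's mean in its own genotype (log2, colour scale ending at 0.6), with WT for wild type and KO for Sox11 knockout. Red columns at wild type replicate 2 and knockout replicate 1 and a blue column at wild type replicate 4 run through most groups of genes.

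Markers of other cells moved with some of these arrays. Of the 10 mural cell and smooth muscle genes 9 lay above their mean on wild type replicate 2 (median 0.21) and 9 on knockout replicate 1 (median 0.16), while 3 did so on wild type replicate 4 (median -0.04). All 5 platelet genes lay below their mean on wild type replicate 2 (median -0.44). On knockout replicate 1 all 13 genes of macrophages and other white blood cells lay above their knockout mean, by a median of 0.27, and on wild type replicate 4 only 2 of 13 lay above their wild type mean (median -0.17). Erythroid genes had medians of -0.23 on wild type replicate 4 and -0.12 on knockout replicate 1. On wild type replicate 2 white blood cell genes had a median of 0.11 and erythroid genes of -0.04. On wild type replicate 3 the endothelial genes had a median of 0.03. There 12 of 13 white blood cell genes (median 0.12), 11 of 12 erythroid genes (0.25) and all 5 platelet genes (0.50) lay above their mean, and 3 of 10 mural cell and smooth muscle genes (-0.15). Between the genotypes white blood cell genes had a median change of 0.02 with a range of -0.10 to 0.22, none past the threshold, with Mrc1, Ptprc and Adgre1 at 0.22, 0.11 and 0.16 (limma adjusted p = 0.375 to 0.629). Erythroid genes had a median of -0.22, with 11 of 12 below 0 and none past the threshold. At an unadjusted p under 0.05 by limma 5 were lower, as were 9.38% of all genes. Rhd, Rhag and Epb42, genes of the red cell membrane, were at -0.51, -0.45 and -0.38 (limma adjusted p = 0.0827 to 0.187). In Rhd and Rhag all knockout arrays lay below all wild type arrays, as in 6.47% of all genes. Signals ran from 5.71 to 8.66 for white blood cell genes and from 5.87 to 13.85 for erythroid genes. Their part in the endothelial values was not tested.

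Genes that act with these members were read from lists of ligands, partners and vessel identity. Of 10 VEGF and angiopoietin ligands and co-receptors 9 lay above 0, with a median of 0.13, and none passed the threshold. Angpt1, the ligand that activates TEK, was at 0.29 (SE 0.11, limma adjusted p = 0.231), Nrp1, a co-receptor for VEGF, at 0.24 (SE 0.10, limma adjusted p = 0.264), and Vegfb, a ligand of FLT1, at 0.14 (SE 0.07, limma adjusted p = 0.332). Of 8 ligands and partners of the other receptors none passed, among them Calcrl, the receptor that pairs with RAMP2, at 0.21, Tgfb1 at 0.15 and Spns2, which exports sphingosine-1-phosphate, at -0.13. Of 13 genes of arterial and venous identity none passed and 7 lay above 0, with the Notch effectors Hey1 and Hey2 at 0.25 and 0.34 and the arterial ephrin gene Efnb2 at 0.17 (limma adjusted p = 0.308 to 0.441). Of 8 factors of blood and endothelial progenitors none passed either. Etv2, which starts the endothelial programme, was at 0.33 (SE 0.11, limma adjusted p = 0.183), at signals of 5.35 to 6.04, and Mef2c and Lmo2 were at 0.05 and 0.02.

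Among 16 further endothelial genes 1 passed, as higher, where 0.362% of all genes were called higher. Stab2, a scavenger receptor that takes up hyaluronan in sinusoidal and lymphatic endothelium, rose in the knockout. Its signal (probe set 10371506) was 6.64, 6.55, 6.84 and 6.76 in wild type and 7.5, 6.97, 7.39 and 7.40 in the knockout. All knockout arrays lay above all wild type arrays, as in 4.04% of all genes, with knockout replicate 2 closest to the wild type arrays. The mean signal lay under the median level of all genes, 7.55, so that the filter at the median level left Stab2 out. Means of 6.70 ± 0.13 and 7.31 ± 0.23 (SD, n = 4 each) gave a change of 0.62 (SE 0.11), or 1.53-fold, with a limma adjusted p of 0.0298. The call was lost when any 1 of wild type replicates 1, 2 or 4 or knockout replicates 1, 3 or 4 was left out (limma adjusted p = 0.0524 to 0.1). It was kept without wild type replicate 3 (limma adjusted p = 0.0452) and without knockout replicate 2 (0.00614). Calls over all genes also fell with 1 array left out, from 279 to between 107 and 243. Of 11 alternatives on all arrays 8 kept the call of Stab2 (limma adjusted p = 0.0184 to 0.0325). It was lost without moderation (0.129), with Y-linked signal in the fit (0.0601) and with the mean of the 32 genes in it (0.0533), an alternative added after the data were seen. Where the call was lost the changes were 0.56 to 0.64. The related receptor gene Stab1 was at -0.02, and Gpr182, a receptor of sinusoidal and lymphatic endothelium, and Adgrl4 were at 0.27 and 0.17 (limma adjusted p = 0.374 and 0.388). Stab1 was chosen after its values were seen. The list had a median change of 0.02.

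The promoters of Flt4 and Cd34 are printed because these were the 2 of the 32 genes whose genotypes did not overlap, in opposite directions, and that of Stab2 because it passed the threshold. Each is the 250 bases before the start of the gene in RefSeq's annotation of GRCm38.p6, at chr11:49609429-49609678 (+ strand), chr1:194938571-194938820 (+ strand) and chr10:87007943-87008192 (- strand). Capitals mark GGAAG or its complement CTTCC, a form of the core that ETS factors bind. They also mark ACAAT or its complement ATTGT, a core that SOX factors bind. Other stretches with the shorter GGAA or TTCC are printed in small letters and were not counted.
Flt4: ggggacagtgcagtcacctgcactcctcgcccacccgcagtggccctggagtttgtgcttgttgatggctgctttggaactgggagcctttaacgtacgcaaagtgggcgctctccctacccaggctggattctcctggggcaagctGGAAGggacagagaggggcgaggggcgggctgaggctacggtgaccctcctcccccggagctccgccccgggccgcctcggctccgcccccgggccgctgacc
Cd34: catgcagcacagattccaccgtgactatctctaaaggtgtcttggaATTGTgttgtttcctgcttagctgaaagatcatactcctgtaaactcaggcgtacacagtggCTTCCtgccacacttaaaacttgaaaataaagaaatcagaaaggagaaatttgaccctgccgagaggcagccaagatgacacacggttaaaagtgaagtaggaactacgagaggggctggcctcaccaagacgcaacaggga
Stab2: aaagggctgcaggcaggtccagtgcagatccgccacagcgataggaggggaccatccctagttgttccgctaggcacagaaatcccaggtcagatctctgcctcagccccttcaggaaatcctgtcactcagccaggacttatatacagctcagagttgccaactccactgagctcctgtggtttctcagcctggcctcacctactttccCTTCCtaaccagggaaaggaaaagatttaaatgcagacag
Each held GGAAG once on either strand, and Cd34 alone held ACAAT, once. Flt4 had 68.4% G and C in this stretch, Cd34 46.4% and Stab2 53.2%. The RefSeq table held 17 windows (250 bases before to 50 after the start) for 13 of the 32 genes. GGAAG on either strand was in 76.5% of these windows and in 71.4% of all 32851 windows. The longer CAGGAAG, which contains it, was in 7 of the 17 (41.2%) and in 13.3% of all windows, while CCGGAAG was in none of the 17 and in 8.86% of all. The SOX cores ACAAT and ACAAAG were in 29.4% and 23.5% of the windows of endothelial genes and in 31% and 18.7% of all windows, and TATAAA was in 11.8% and 13.6%. Some genes had several windows, and a match describes letters and not a bound site.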

How the data were processed

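The authors deposited 1 log2 signal per probe set and array, 27478 probe sets on 8 arrays, made with RMA (background correction, quantile normalization between arrays, summary per probe set) and Partek, as the submitters' processing notes name them. The sources used here give no versions, settings or genome build, and the log2 scale was read from the deposited values (4.30 to 14.62, array medians 7.29 to 7.31). RMA hides any shift of all transcripts together, and the number of arrays limits the precision.

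Of the probe sets 21103 had exactly 1 gene symbol in the platform annotation, 1531 several and 4844 none. Symbols were updated by gene ID through RefSeq's GRCm38.p6 table (80 without an entry). The comparison used R 4.3.3 and limma 3.58.1 (lmFit, eBayes without trend, genotype only, two-sided, Benjamini-Hochberg over all genes, threshold 0.05), and the script was tested on simulated data. The endothelial genes, the other lists and the tests were chosen with earlier results of these data known. Named are all 32 endothelial genes, Sox11, and in each other list the genes past the threshold and the 3 with the lowest p, with exceptions said in place. Of the listed genes 137 were measured, and 5 of other blood cells were not used here. Alternatives were 2 further normalizations, 2 filters on level, every probe set, the mean of probe sets, trended and robust moderation, none, array weights, the replicate block, the Y-linked signal, an adjusted p under 0.1, leaving out each array and, added after the data were seen, the mean of the 32 genes as a covariate.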

Additional observations from a re-analysis of the deposited data

Results flagged for a closer look

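Each genotype's 4 arrays were checked for a single array far from the other 3, in 126 groups of 4 (64 of them in the 32 endothelial genes). In 4 groups the gap to the nearest array, as a share of the range, exceeded Dixon's critical value, which chance does in about 1 in 20. Nos3 read 8.0 on knockout replicate 1, against 7.63 to 7.70 on the other 3 knockout arrays. It was the 1 endothelial gene with such an array. The receptor gene Calcrl read 11.07 on knockout replicate 4, against 10.79 to 10.83. The platelet gene Gp9 read 7.43 on knockout replicate 2, against 7.58 to 7.59. The erythroid gene Rhag read 7.38 on wild type replicate 3, against 6.78 to 6.87.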

How the results depend on the processing

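No endothelial gene passed the threshold in any of the recomputed fits (limma adjusted p of 0.107 or more), and the count of genes higher and of genes lower stayed at 0 also at an adjusted p under 0.1. Of all 32 genes 28 were left by the filter at the median level. Signs changed in 13 genes, none of them at more than 0.10 in the main analysis. The median change was 0.03 to 0.10 on all arrays (0.01 with the mean of the 32 genes as a covariate, which brings it toward 0 by construction and tests nothing about them) and -0.00 to 0.10 when 1 array was left out. The count with all knockout arrays higher was 2 after median centring and 2 after a further quantile normalization, and 1 to 3 when 1 array was left out; the count with all lower was 1 to 2. After median centring 12 genes in place of 19 were lowest on wild type replicate 4. The replicate block, which shares only a number across genotypes, gave 0 endothelial genes; the deviations of same-numbered arrays correlated at -0.17, 0.09, -0.04 and 0.06 over genes. Over all genes 70 were higher and 209 lower; these counts were 49 and 117 with the replicate block, 34 and 117 with Y-linked signal in the fit, 7 and 48 without moderation, 82 and 137 after median centring, and 17 to 55 and 88 to 192 when 1 array was left out.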

Other observations

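All 5 measured genes of megakaryocytes and platelets lay below their wild type mean on replicate 2 (median -0.44) and all 5 above it on replicate 3 (median 0.50). Ppbp, a platelet chemokine, read 9.73, 8.96, 10.36 and 9.80 in wild type and 9.98, 9.25, 10.06 and 10.27 in the knockout, and Pf4, another, read 8.19, 7.74, 8.76 and 8.37, and 8.28, 8.40, 8.45 and 8.44. Vwf, which platelets also carry, was highest on wild type replicate 2 and lowest on replicate 3, where Ppbp and Pf4 were lowest and highest. In the knockout Vwf was highest on replicate 1 and lowest on replicate 3, where Ppbp lay 0.09 and 0.17 above its mean. There Ppbp was lowest on replicate 2 and highest on replicate 4, and Pf4 ran only from 8.28 to 8.45. The part of platelets in the values of Vwf was not tested.

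Among mural cell genes Cspg4, which encodes the pericyte proteoglycan NG2, read 7.79, 8.08, 7.6 and 7.74 in wild type and 8.37, 8.25, 8.18 and 8.13 in the knockout. All knockout arrays lay above all wild type arrays, as in 4.04% of all genes. The change of 0.43 (SE 0.10) did not pass (limma adjusted p = 0.0745, and 0.0273 to 0.188 over the alternatives, of which 3 passed). Notch3 was at -0.23 (SE 0.08, limma adjusted p = 0.184) and Rgs5 at 0.31 (SE 0.15, limma adjusted p = 0.341). In Notch3 all knockout arrays lay below all wild type arrays, as in 6.47% of all genes, with a gap of 0.01.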
